A study of Mus musculus with 7 samples.

Results

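The clustered protocadherin locus of the mouse was examined as a stretch of 930 kb of chromosome 18 in build mm9, beginning at base 37080001. Its members are the 1860 bins of 500 bp whose start lies in that stretch, of 5451548 bins in the whole table, and they were chosen by position alone. They fall into an alpha cluster (chr18:37080001-37350000, 540 bins), a beta cluster (chr18:37410001-37670000, 520 bins) and a gamma cluster (the last 200 kb, from base 37810001, 400 bins). A spacer of 120 bins lies between alpha and beta, and one of 280 bins between beta and gamma. The bounds are approximate, and no mm9 annotation was used here, so single exons and genes were not placed on the bins. The 1 Mb on either side, 4000 bins together, served as the flanks.

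The libraries are 5-hydroxymethylcytosine (5hmC) enrichments of hippocampal genomic DNA from unstressed C57BL/6 mice, 3 wild type (WT) and 4 Tet2 conditional knockout (Tet2 CKO). 5hmC is made from 5-methylcytosine by the TET enzymes, of which TET2 is one. The labels give neither the cells in which Tet2 was removed nor the age of the mice, and do not say whether the libraries come from separate animals, so a p-value here reflects only how much these libraries vary. The position of Tet2 was not placed on the bins, so the deletion itself was not checked.

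Clustered protocadherins are cell surface adhesion proteins of neurons. Each neuron expresses its own combination of them, chosen by use of alternative promoters, and the proteins bind like with like across membranes, which lets a neuron tell its own branches from those of others. In the alpha and gamma clusters each variable first exon is spliced to constant exons shared by the whole cluster, while beta genes are encoded by single exons. CpG methylation of the variable promoters and the protein CTCF take part in the choice. In the RefSeq gene table of build GRCm38.p6, used here for names and order only, the alpha family holds 14 genes from Pcdha1 to Pcdhac2, the beta family 22 from Pcdhb1 to Pcdhb22, and the gamma family 22 from Pcdhga1 to Pcdhgc5, of which 21 are listed as protein coding and Pcdhgb8 as a transcribed pseudogene. Zmat2 comes before the locus, Slc25a2, a mitochondrial carrier gene, and Taf7, a gene of the general transcription machinery, lie between beta and gamma, and Diaph1 and Hdac3 come after it.

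Libraries held between 26134505 and 49414761 reads in all, and between 3811 and 7646 reads in the locus. Tet2 CKO replicates 2 and 3 stood apart from the other 5 libraries over the whole genome, with a read in 35.6% and 38.4% of all bins against 49.6% to 64.2%. Of their 39224160 and 49414761 reads, 11846180 and 12817375 lay outside bins with a mean above 100 reads. The other 5 libraries had 12599351 to 29470058 reads there, of totals between 26134505 and 41988546. Among bins with 1 to 8 reads, between 75.7% and 84.8% held an even number, depending on the library, so the reads of a bin are not independent observations of single molecules. Results are therefore given by library and with and without these 2 libraries.

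The locus carried fewer 5hmC reads than its flanks in 5 of the 7 libraries and more in Tet2 CKO replicates 2 and 3. WT replicates 1, 2 and 3 had 82.2, 44.2 and 45.3 reads per 10 kb in the locus, and 183.4, 66.3 and 74.0 in the flanks. Tet2 CKO replicates 1 and 4 had 41.0 and 49.9 reads per 10 kb in the locus, and 70.0 and 75.5 in the flanks. Tet2 CKO replicates 2 and 3 had 55.9 and 62.1 in the locus, and 36.1 and 37.7 in the flanks. The ratio of locus to flanks was 0.448, 0.667 and 0.613 in WT, 0.585 and 0.661 in Tet2 CKO replicates 1 and 4, and 1.55 and 1.65 in Tet2 CKO replicates 2 and 3. Over the 7 libraries the mean log2 ratio was -0.35 ± 0.73 (SD, n = 7), a deviation from 0 that did not exceed the spread between libraries (exact sign-flip permutation, two-sided, p = 0.266, adjusted p = 0.354 over 4 regions). Without Tet2 CKO replicates 2 and 3 the mean was -0.76, and that of alpha, beta and gamma was -0.65, -1.33 and -0.36, with all 5 libraries below 0 in each (exact sign-flip permutation, p = 0.0625, the smallest that 5 libraries allow).

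**Figure D1:**
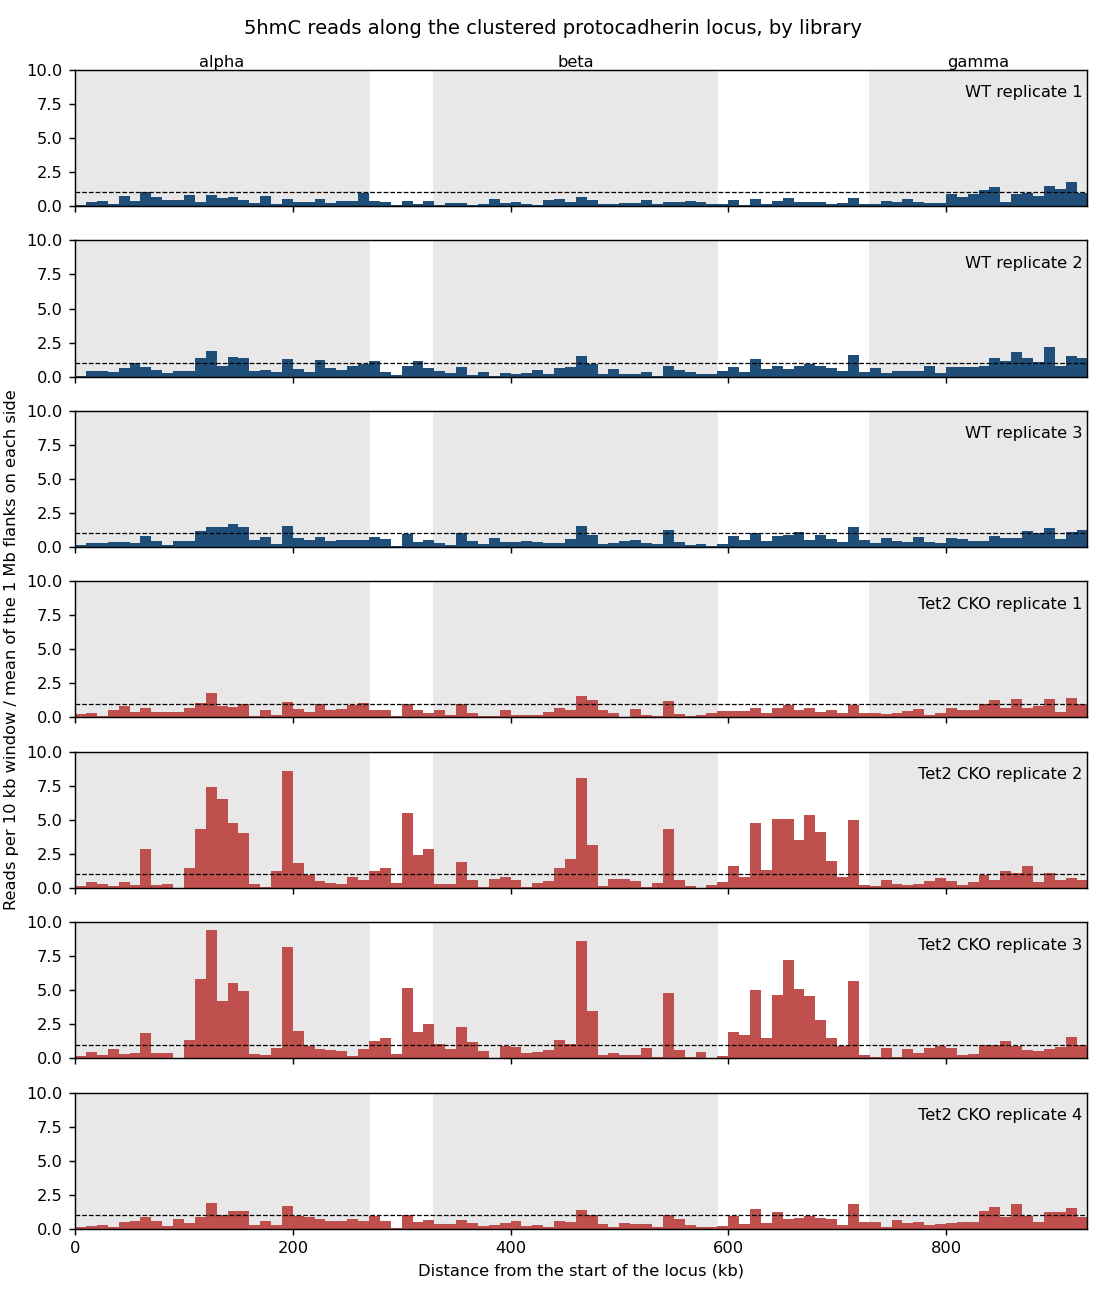
Reads in each 10 kb window of the locus divided by the library's own mean over the flanks (linear vertical axis), against distance from the start of the locus in kb, with 1 panel per library and the 3 clusters shaded. The dashed line marks the flank mean; Tet2 CKO replicates 2 and 3 reach 8.61 and 9.45 times that mean in the alpha cluster, while the other 5 libraries reach at most 2.16 times anywhere in the locus.

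The flanks themselves differed between libraries when set against all autosomes. Their density was above the autosomal mean by 0.65, 0.43 and 0.34 on the log2 scale in WT replicates 1, 2 and 3, and by 0.46 and 0.42 in Tet2 CKO replicates 1 and 4. In Tet2 CKO replicates 2 and 3 it was below that mean, at -0.32 and -0.37. Against the autosomes, the locus stood at log2 values of -0.51, -0.16 and -0.36 in WT, at -0.31 and -0.18 in Tet2 CKO replicates 1 and 4, and at 0.31 and 0.35 in Tet2 CKO replicates 2 and 3. On both scales the same 2 libraries lay above the other 5.

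The alpha cluster, which holds the Pcdha genes, had 88.2, 47.4 and 49.8 reads per 10 kb in WT replicates 1, 2 and 3 and 45.7, 65.5, 71.9 and 52.8 in Tet2 CKO replicates 1, 2, 3 and 4. Its log2 ratio to the flanks was -1.06, -0.48 and -0.57 in WT, and -0.62, 0.86, 0.93 and -0.52 in Tet2 CKO. The groups overlapped, since Tet2 CKO replicates 1 and 4 lay within the WT range. The window richest on average, chr18:37200001-37210000, held 148, 122 and 110 reads in WT and 125, 267, 356 and 143 in Tet2 CKO. It was the highest alpha window of WT replicate 2 and of Tet2 CKO replicates 1, 3 and 4. The lowest on average, chr18:37080001-37090000 at the start of the cluster, held between 4 and 16 reads in each library. The window chr18:37170001-37180000 held 82, 26 and 35 reads in WT and 30 and 54 in Tet2 CKO replicates 1 and 4, but 0 and 1 read in replicates 2 and 3. A count of 0 would allow up to 3 reads by counting error alone if reads were independent. They are not here, so the bound may be higher.

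The beta cluster, which holds the Pcdhb genes, was the poorest of the 3 clusters in WT. It had 51.3, 26.1 and 33.7 reads per 10 kb in WT replicates 1, 2 and 3, and 31.3, 39.6, 45.7 and 33.3 in Tet2 CKO replicates 1, 2, 3 and 4. Its log2 ratio to the flanks was -1.84, -1.34 and -1.13 in WT and -1.16, 0.13, 0.28 and -1.18 in Tet2 CKO. Between 33.5% and 50.6% of its bins held a read, against 39.2% to 83.2% of the flank bins. One window stood above the rest of the cluster in all 7 libraries, chr18:37540001-37550000, with 119, 98 and 112 reads in WT and 110, 291, 325 and 104 in Tet2 CKO. The lowest on average, chr18:37610001-37620000, held between 2 and 21 reads.

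The gamma cluster, which holds the Pcdhg genes, lay below the flanks in every library and was the one cluster in which Tet2 CKO replicates 2 and 3 did not rise above them. It had 142.2, 60.9 and 51.1 reads per 10 kb in WT and 50.6, 22.95, 27.1 and 60.7 in Tet2 CKO replicates 1, 2, 3 and 4. Its log2 ratio to the flanks was -0.37, -0.12 and -0.53 in WT and -0.47, -0.65, -0.47 and -0.32 in Tet2 CKO, a mean of -0.42 ± 0.17 (SD, n = 7). All 7 libraries shared this direction, which gave the smallest p that 7 signs allow (exact sign-flip permutation, two-sided, p = 0.0156), but adjusted over the 4 regions p was 0.0625. With the autosomes in place of the flanks the mean was -0.19, with 3 of 7 libraries above 0. Against the autosomes gamma was at 0.28, 0.30 and -0.19 in WT and at -0.006, -0.97, -0.85 and 0.11 in Tet2 CKO replicates 1, 2, 3 and 4, so replicates 2 and 3 were low there, as in the flanks. The highest gamma window on average, chr18:37990001-38000000, lay near its far end and held 320, 100 and 79 reads in WT and 101, 27, 58 and 116 in Tet2 CKO. The lowest on average, chr18:37810001-37820000 at its start, held 29, 40 and 22 in WT and 24, 4, 4 and 39 in Tet2 CKO.

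The spacers between the clusters showed the widest range between libraries. The alpha-beta spacer stood at log2 ratios to the flanks of -1.88, -0.55 and -0.92 in WT and -0.98, 1.20, 1.09 and -0.66 in Tet2 CKO replicates 1, 2, 3 and 4. The beta-gamma spacer, which lies where the gene table orders Slc25a2 and Taf7, stood at -1.70, -0.49 and -0.49 in WT and at -0.86, 1.51, 1.62 and -0.31 in Tet2 CKO. It held 10.3%, 16.1% and 17.5% of the locus reads in WT and 14.2%, 27.8%, 28.1% and 18.4% in Tet2 CKO. In the alpha-beta spacer the richest and poorest tested windows were chr18:37380001-37390000, described with the single windows, and chr18:37360001-37370000, with 51, 23 and 44 reads in WT and 37, 53, 56 and 45 in Tet2 CKO. In the beta-gamma spacer they were chr18:37790001-37800000, with 104, 103 and 108 reads in WT and 62, 180, 214 and 139 in Tet2 CKO, and chr18:37670001-37680000, with between 6 and 32 reads in each library.

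**Figure D2:**
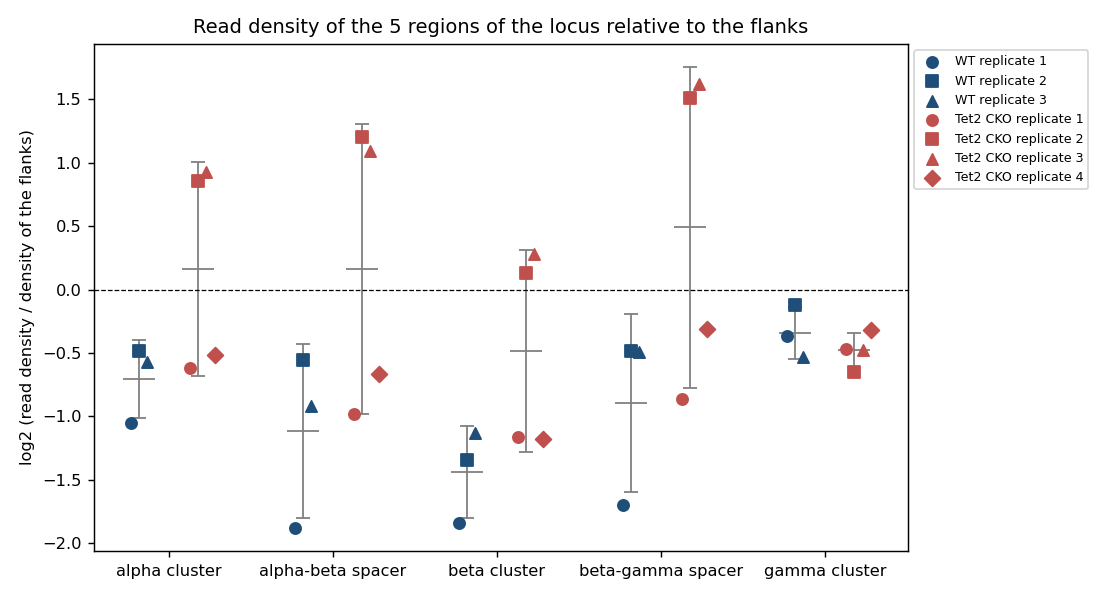
log2 ratio of read density to that of the flanks in the 5 regions of the locus, ordered along the chromosome, with WT replicates in blue, Tet2 CKO replicates in red and the mean ± SD of each group in grey. In 4 of the 5 regions Tet2 CKO replicates 2 and 3 lie above 0 and the other 5 libraries below it; in the gamma cluster all 7 lie between -0.65 and -0.12.

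By the sum of all reads, 1 of the 3 pairs of clusters kept its order in every library. The alpha cluster was denser than the beta cluster in 7 of 7 libraries, by log2 ratios of 0.78, 0.86 and 0.56 in WT and 0.55, 0.73, 0.65 and 0.67 in Tet2 CKO replicates 1, 2, 3 and 4. The mean was 0.69 ± 0.11 (SD, n = 7), past the threshold by the exact sign-flip permutation (two-sided, p = 0.0156, adjusted p = 0.0469 over 3 pairs of clusters). Leaving out any 1 library moved the mean only between 0.66 and 0.71, but 6 libraries allow no p under 0.0312 and gave an adjusted p of 0.0938 (exact permutation). The gamma cluster was denser than alpha by 0.69, 0.36 and 0.04 in WT and by 0.15 and 0.20 in Tet2 CKO replicates 1 and 4, and less dense in replicates 2 and 3, at -1.51 and -1.41. The mean of -0.21 ± 0.88 (SD, n = 7) did not exceed the spread (exact sign-flip permutation, p = 0.516, adjusted p = 0.516), and it was 0.29 without replicates 2 and 3 and 0.005 without replicate 2 alone. Gamma over beta ran from 0.60 to 1.47 in the same 5 libraries and was -0.79 and -0.75 in Tet2 CKO replicates 2 and 3 (mean 0.47 ± 0.90, SD, n = 7; exact sign-flip permutation, p = 0.234, adjusted p = 0.352).

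The reads of Tet2 CKO replicates 2 and 3 in the locus were concentrated in the same few windows. In both libraries, 18 of the 93 windows of 10 kb (19.4%) held at least 2 times the library's own flank mean, 6 in alpha, 2 in the alpha-beta spacer, 3 in beta, 7 in the beta-gamma spacer and none in gamma. These windows were picked by their values in these 2 libraries, so their height there is a description. They formed a run at chr18:37190001-37240000 and a single window at chr18:37270001-37280000 in alpha, and a run at chr18:37720001-37770000 with a single window on either side in the beta-gamma spacer. They held 64.3% and 63.9% of the locus reads of Tet2 CKO replicates 2 and 3, at 5.14 and 5.45 times the flank mean. In WT replicates 1, 2 and 3 the same windows held 20.0%, 31.1% and 36.0% of the locus reads, at 0.463, 1.07 and 1.14 times the flank mean. In Tet2 CKO replicates 1 and 4 they held 30.9% and 33.9%, at 0.934 and 1.16 times. In WT replicate 1 their pooled density was close to that of the other windows (84.9 against 81.6 reads per 10 kb). In the remaining 4 libraries (WT 2 and 3, Tet2 CKO 1 and 4) the pooled density was higher than that of the other windows, but only 8, 11, 8 and 11 of the 18 were above the flank mean there. Over the remaining windows the ratio to the flanks was 0.445, 0.569 and 0.486 in WT and 0.502, 0.686, 0.738 and 0.542 in Tet2 CKO replicates 1, 2, 3 and 4, below 1 in all 7. The windows left out were chosen as high in Tet2 CKO replicates 2 and 3. A lower ratio of the rest in these 2 libraries follows from that choice and is a description too.

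The median window, which a few rich windows move little, gave one direction in all libraries for the whole locus and each cluster, but not for the spacers. The log2 ratio of the median 10 kb window of the locus to that of the flanks was -1.44, -0.71 and -1.02 in WT and -0.77, -0.58, -0.14 and -0.79 in Tet2 CKO replicates 1, 2, 3 and 4. In alpha it was -1.06, -0.71 and -1.02 in WT and -0.62, -0.87, -0.40 and -0.66 in Tet2 CKO. In beta it was -1.96, -1.83 and -1.49 in WT and -1.52, -0.76, -0.52 and -1.40 in Tet2 CKO. The alpha-beta spacer was at -1.57, -0.48 and -0.83 in WT and -0.77, 1.075, 0.96 and -0.64 in Tet2 CKO. The beta-gamma spacer was at -1.66, -0.59 and -0.55 in WT and -0.85, 1.59, 1.44 and -0.33 in Tet2 CKO. In both spacers Tet2 CKO replicates 2 and 3 thus stayed above the flanks by the median window as well. By this measure the whole locus, alpha, beta and gamma were each below the flanks in 7 of 7 libraries, with means of -0.78, -0.76, -1.35 and -0.47 (exact sign-flip permutation, two-sided, adjusted p = 0.0156 for each over 4 regions, n = 7). The sum of all reads did not pass, so this call depends on the summary used. The median window also put gamma above alpha by 0.29 in the mean (6 of 7 libraries) and above beta by 0.88 (7 of 7), and alpha above beta by 0.59 (6 of 7) (exact sign-flip permutation, adjusted p = 0.0312 for each, n = 7). The order of alpha and beta was the opposite in Tet2 CKO replicate 2, at -0.87 and -0.76.

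**Figure D3:**
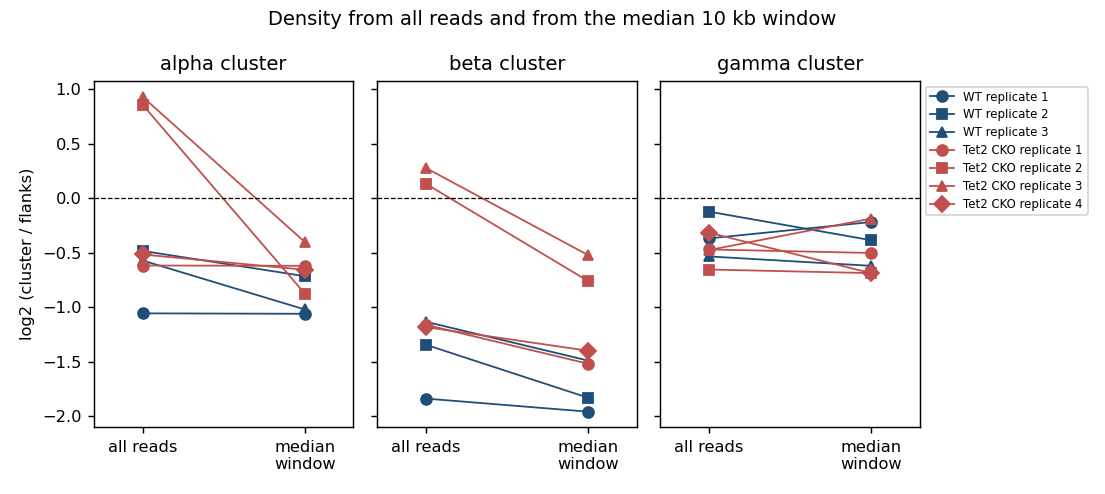
log2 ratio of each cluster to the flanks from all reads (left of each panel) and from the median 10 kb window (right), with 1 line per library, WT in blue and Tet2 CKO in red. In alpha and beta Tet2 CKO replicates 2 and 3 lie above 0 by all reads and below it by the median window; in gamma both measures lie below 0 in all 7 libraries.

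The comparison of genotypes asked whether 5hmC reads in the locus differ between the WT and Tet2 CKO libraries. The log2 ratio of the whole locus to the flanks averaged -0.82 ± 0.30 over the WT libraries (SD, n = 3) and -0.005 ± 0.79 over those of Tet2 CKO (SD, n = 4). In alpha it was -0.70 ± 0.31 and 0.16 ± 0.85, in beta -1.44 ± 0.36 and -0.48 ± 0.80, and in gamma -0.34 ± 0.21 and -0.48 ± 0.14. The differences of 0.81 for the locus, 0.87 for alpha, 0.96 for beta and -0.14 for gamma were not past the threshold (exact permutation test over 35 assignments, two-sided, p = 0.257, 0.257, 0.2 and 0.371, and adjusted p = 0.343, 0.343, 0.343 and 0.371 over 4 regions). The smallest p this design allows is 0.0286. Without Tet2 CKO replicates 2 and 3 the differences were 0.13, 0.14, 0.27 and -0.052, and without WT replicate 1 as well they were -0.039, -0.039, 0.067 and -0.065. Between libraries with replicate numbers 1, 2 and 3, the Tet2 CKO value of the locus exceeded the WT value by 0.39, 1.22 and 1.43 (exact sign-flip permutation, p = 0.25, the smallest that 3 pairs allow).

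In single 10 kb windows, edgeR called no change without the replicate block. With the block it called 19 windows higher (20.7%, against 12.6% of all windows) and 4 lower (4.35%, against 9.57%). DESeq2 with its default trend and no block called 5 of the 11 windows it gave an adjusted p, all higher, against 29.4% of all such windows. Of the 93 windows 92 had a mean of at least 10 reads and were tested, and the one left out, chr18:37370001-37380000 in the alpha-beta spacer, held between 6 and 14 reads in each library. The edgeR quasi-likelihood test called 0 of the 92 at adjusted p under 0.05, as it called 0% of the 253978 windows of the genome, and the lowest adjusted p in the locus was 0.369. At unadjusted p under 0.05, 13 windows of the locus were higher in Tet2 CKO (14.1%, against 9.77% of all windows) and 2 were lower (2.17%, against 3.71%). The median log2 fold change was 0.14 over the locus and 0.010 over all windows. Every Tet2 CKO library lay above every WT library in 5 windows of the locus (5.43%, against 4.81% of all windows) and below in 4 (4.35%, against 5.03%), shares near those of the genome.

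The regions differed in the direction of these windows. The fitted log2 fold change was above 0 in 14 of 27 alpha windows (median 0.029), in 5 of 5 tested windows of the alpha-beta spacer (median 0.92), in 15 of 26 beta windows (median 0.29) and in 13 of 14 windows of the beta-gamma spacer (median 1.14). In gamma it was below 0 in 18 of 20 windows (median -0.46). The 13 windows higher at unadjusted p under 0.05 were 3 in alpha, 1 in the alpha-beta spacer, 4 in beta and 5 in the beta-gamma spacer, and both lower ones were in gamma. Scaling by library size alone moved the median of all windows to -0.52 and that of the locus to -0.40, and gave 0 higher (against 0.307% of all windows) and 4 lower windows (4.35%, against 4.93%) at that p. The medians were then -0.43, 0.21, -0.24, 0.40 and -1.04 in the 5 regions in order. Without Tet2 CKO replicates 2 and 3 the medians were -0.030, -0.032, 0.21, 0.16 and -0.24, and 0 windows were higher and 1 lower at unadjusted p under 0.05 (against 1.69% and 1.71% of all windows). Leaving out 1 library at a time changed the count of 15 windows at that p to 1, 6 and 10 for WT replicates 1, 2 and 3, and to 28, 8, 3 and 23 for Tet2 CKO replicates 1, 2, 3 and 4. The share of all windows at that p moved as well, to 2.81%, 8.26% and 9.84% without the WT replicates in turn, beside 1.12%, 6.52% and 11.0% of the locus. Without the Tet2 CKO replicates in turn it was 23.8%, 6.08%, 5.5% and 22.3%, beside 30.8%, 8.70%, 3.26% and 25.3% of the locus.

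**Figure D4:**
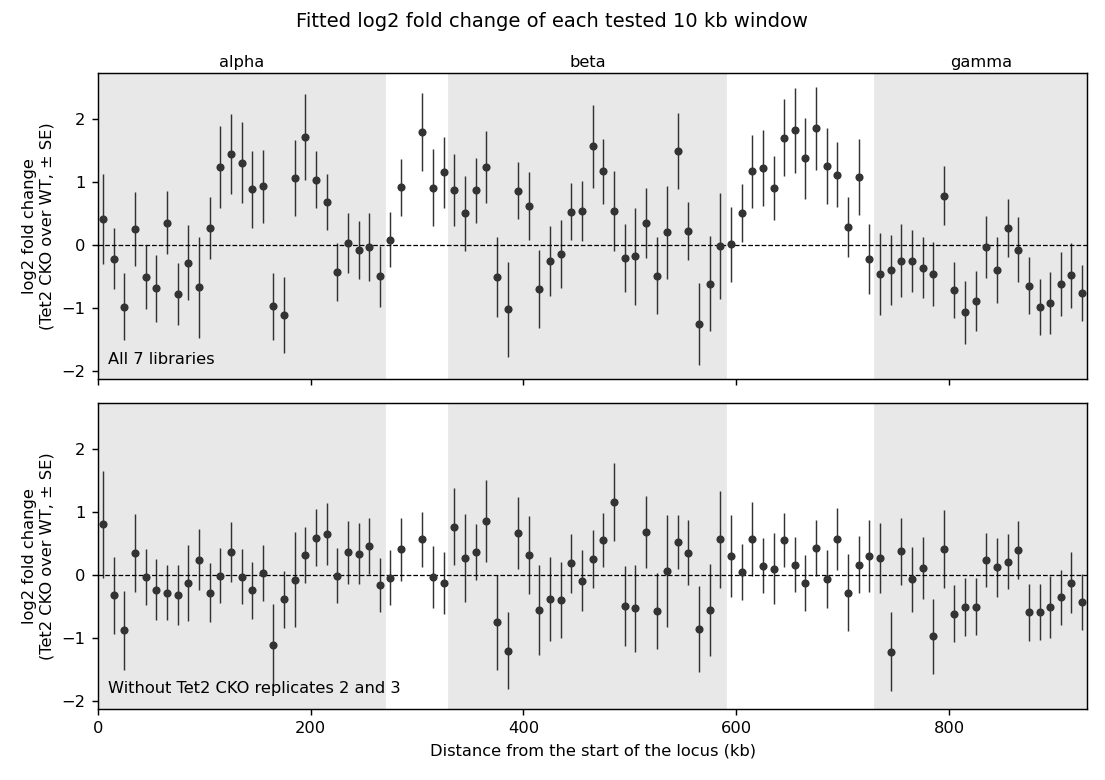
Fitted log2 fold change (Tet2 CKO over WT, ± SE) of each of the 92 tested 10 kb windows against distance from the start of the locus in kb, from all 7 libraries (top) and without Tet2 CKO replicates 2 and 3 (bottom), with the 3 clusters shaded. In the top panel values run from -1.26 to 1.85 with 18 of 20 gamma windows below 0; in the bottom panel they run from -1.22 to 1.16 with 12 of 20 gamma windows below 0.

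Tet2 CKO replicate 4 shares its number with no WT library. With a block for the replicate number the genotype effect therefore rests on replicates 1, 2 and 3, including Tet2 CKO replicates 2 and 3. In this fit 19 windows of the locus were called higher (20.7%, against 12.6% of all windows) and 4 lower (4.35%, against 9.57%) at adjusted p under 0.05 in edgeR. The higher ones were 5 in alpha, 2 in the alpha-beta spacer, 4 in beta and 8 in the beta-gamma spacer, and the lower ones 2 in alpha and 2 in gamma. One of the lower alpha windows was chr18:37170001-37180000, where Tet2 CKO replicates 2 and 3 held 0 and 1 read and the fitted log2 fold change was -2.43 (adjusted p = 0.0258 in edgeR) with the block and -0.67 (adjusted p = 0.664) without it; a fitted fold of such low counts is no bound. DESeq2 with its default trend gave an adjusted p to 11 windows of the locus and called 5, all higher, where it called 29.4% of all windows with an adjusted p higher. Its filter on the mean count favoured windows rich in Tet2 CKO replicates 2 and 3, so the direction of these 5 is a description. With a local trend DESeq2 called 0 of 84, against 0.107% of all windows in either direction.

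The 3 windows of the locus with the smallest p in each direction are described singly. The window chr18:37380001-37390000 in the alpha-beta spacer held 64, 51 and 68 reads in WT and 71, 200, 196 and 77 in Tet2 CKO replicates 1, 2, 3 and 4. As CPM, which scales reads to the library's size after TMM normalization, these were 1.01, 1.64 and 1.82 in WT and 2.22, 8.43, 7.87 and 2.14 in Tet2 CKO. The TMM factors were 0.605 and 0.504 in Tet2 CKO replicates 2 and 3 and between 1.13 and 1.515 in the other libraries. A factor below 1 raises the CPM of its library. The groups did not overlap in CPM, as in 4.81% of all windows in this direction, and the fitted log2 fold change was 1.79 (SE 0.63). The windows chr18:37750001-37760000 and chr18:37720001-37730000 lie in the beta-gamma spacer. The first had 0.881, 1.99 and 0.991 CPM in WT and 1.47, 8.18, 6.99 and 1.95 in Tet2 CKO (log2 fold change 1.85, SE 0.66), with overlap between the groups. The second had 1.13, 1.70 and 1.53 CPM in WT and 1.60, 7.72, 7.03 and 2.65 in Tet2 CKO (log2 fold change 1.71, SE 0.61), also with overlap. In all 3 windows Tet2 CKO replicates 2 and 3 were above every other library, and without them the log2 fold changes were 0.56, 0.43 and 0.55.

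In the other direction the window chr18:37960001-37970000 in gamma had 2.12, 2.31 and 2.01 CPM in WT and 1.78, 0.675, 0.763 and 1.09 in Tet2 CKO replicates 1, 2, 3 and 4. The groups did not overlap in CPM, as in 5.03% of all windows in this direction. The log2 fold change was -0.98 (SE 0.44), or -0.59 without replicates 2 and 3. Relative to the flanks the groups overlapped, with 0.814 in Tet2 CKO replicate 1 and 0.736 in WT replicate 1. The gamma window chr18:37890001-37900000 had 1.90, 1.51 and 1.15 CPM in WT and 1.13, 0.337, 0.361 and 1.03 in Tet2 CKO (log2 fold change -1.07, SE 0.50), again with no overlap, and -0.51 without replicates 2 and 3. The beta window chr18:37640001-37650000 had 1.10, 0.739 and 0.268 CPM in WT and 0.250, 0.253, 0.120 and 0.529 in Tet2 CKO (log2 fold change -1.26, SE 0.65), with overlap. In edgeR without a block all 6 missed the threshold, at adjusted p between 0.369 and 0.372, and over all alternatives the adjusted p ran from 0.00723 to 1.0. With the block, the 3 higher windows (adjusted p = 0.00723, 0.0075 and 0.0097 in edgeR) and the gamma window at 37890001 (adjusted p = 0.039) were past it. The window at 37380001 was also past it with DESeq2's default trend (adjusted p = 0.0477). It was the only one of the 6 to which that trend gave an adjusted p.

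The richest single bin of the locus, chr18:37547001-37547500 in the beta cluster, held 56, 48 and 50 reads in WT replicates 1, 2 and 3 and 54, 144, 200 and 51 in Tet2 CKO replicates 1, 2, 3 and 4. It alone held 4.20%, 7.07% and 5.70% of the beta reads in WT and 6.63%, 14.0%, 16.8% and 5.90% in Tet2 CKO. The next bin on its right, chr18:37547501-37548000, was among the 5 richest as well, with 26, 17 and 12 reads in WT and 17, 51, 50 and 14 in Tet2 CKO, while the bin after it held at most 7. The other 3 were chr18:37761001-37761500 in the beta-gamma spacer, with 17, 22 and 21 reads in WT and 14, 65, 39 and 22 in Tet2 CKO, and 2 alpha bins. Of these, chr18:37232001-37232500 held 10, 9 and 14 reads in WT and 22, 39, 45 and 25 in Tet2 CKO, and chr18:37204501-37205000 held 20, 8 and 15 in WT and 14, 39, 57 and 20 in Tet2 CKO. In all 5 bins Tet2 CKO replicates 2 and 3 had the highest raw counts, and the remaining libraries had 8 to 56 reads. Scaled to total reads this did not hold for chr18:37761001-37761500, at 0.789 CPM in Tet2 CKO replicate 3 and 0.799 in WT replicate 2. The bins were picked by mean CPM over all 7 libraries, which favours bins high in these 2. No bin of the locus had a mean above 100 reads.

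The libraries were also compared by the shape of their profile along the locus. Across the 92 tested windows, Pearson correlations of log2(CPM + 0.5) of Tet2 CKO replicates 2 and 3 with 4 libraries (replicates 2 and 3 of WT, 1 and 4 of Tet2 CKO) lay between 0.561 and 0.715. Across the 199 tested windows of the flanks the same pairs lay between 0.004 and 0.162, and across 239001 autosomal windows between 0.337 and 0.436. The correlation of Tet2 CKO replicates 2 and 3 was 0.912 in the locus, 0.627 in the flanks and 0.855 over the autosomes. The other 5 libraries correlated among themselves at 0.539 to 0.749 in the flanks. WT replicate 1 correlated with them at 0.190 and 0.173 in the locus, and with the other 4 libraries at 0.50 to 0.582. These values describe windows that share libraries and depth, and neighbouring windows are not independent.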

How the data were processed

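Hippocampal DNA was enriched with a 5hmC antibody and sequenced on a HiSeq 2000, per the labels' protocols. The authors deposited raw read counts in 500 bp bins. The submitters' processing notes name Bowtie2, HOMER, DESeq2 and mm9; versions, roles and the handling of duplicate or multiply mapping reads are not given in the sources used here, and no input library was used here. All 7 columns matched a label.

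Bins were taken by position, and counts were summed over 10 kb windows of the whole genome. Windows averaging 10 or more reads were fitted on genotype with edgeR 4.0.16 in R 4.3.3 (TMM factors, quasi-likelihood test, two-sided, Benjamini-Hochberg over all windows, threshold 0.05); the SE was taken from the F statistic. Cluster values are log2 ratios of read density to the 1 Mb flanks, compared by exact permutation over 35 assignments or 128 sign changes (Python 3.11.15, numpy 2.4.6, pandas 2.3.3). The autosomal mean left out bins with a mean above 100 reads. DESeq2 1.42.0 was an alternative. The fit was tested on simulated counts with the same dispersion in every window and no library set apart, unlike these data. The permutation tests were checked on values set by hand. Correlations used log2(CPM + 0.5).

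Windows were named as the highest and lowest by mean CPM in each region and the 3 with the smallest p in each direction, and bins as the 5 highest by mean CPM. The window chr18:37170001-37180000 and the 18 windows high in 2 libraries were chosen after their values were seen. The locus, its bounds and the tests were chosen with earlier results of these data known.

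Replicates 1 to 3 share numbers between the groups. Deviations of same-numbered libraries from their group means correlated at 0.548, 0.298 and 0.340 over 226979 autosomal windows, above the criterion of 0.1, so the libraries were treated as paired in an alternative fit. Nothing but the numbering and these correlations links them. Libraries with different numbers were not compared in this way, so the correlations cannot show that the numbering marks pairs. Reads carry no molecular identifiers, so floors cover counting error only, and they hold for independent reads.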

Additional observations from a re-analysis of the deposited data

How the results depend on the processing

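The alternatives were other flanks, the autosomes or the median window as measures, cluster bounds moved 10 kb inwards, other scalings, filters and tests, windows of 100 kb, the replicate block, and libraries left out. The last set, without WT replicate 1 and Tet2 CKO replicates 2 and 3, was chosen after seeing the data. Genotype differences relative to the flanks kept their direction and stayed short of the threshold under all alternatives, except that without those 3 libraries the whole locus and alpha were each at -0.039. With the replicate block the differences were 1.01, 1.10, 1.19 and -0.19 for the locus, alpha, beta and gamma (exact sign-flip permutation, p = 0.25, 0.25, 0.25 and 0.5). For levels against the flanks, the alpha mean was 0.022 with the autosomes as denominator, and the median window put the locus, alpha, beta and gamma past the threshold at -0.78, -0.76, -1.35 and -0.47. Alpha over beta was 0.68 without Tet2 CKO replicates 2 and 3 (exact sign-flip permutation, p = 0.0625, the smallest that 5 libraries allow) and between 0.66 and 0.71 with any 1 library left out; fewer samples raise the smallest possible p. Gamma over alpha was 0.29 by the median window, 0.29 without Tet2 CKO replicates 2 and 3, and between -0.36 and 0.005 with 1 library left out, and gamma over beta by the median window was 0.88. Alpha over beta by the median window was 0.59, with 6 of 7 libraries above 0. The count of windows past the threshold was 0 under all alternatives other than the replicate block and DESeq2's default trend. The block gave 23, of which 19 were higher (20.7%, against 12.6% of all windows) and 4 lower (4.35%, against 9.57%). DESeq2's default trend gave 5 of the 11 windows with an adjusted p, all higher, against 29.4% of all such windows. Its filter on the mean count favoured windows rich in Tet2 CKO replicates 2 and 3, so the direction of these 5 is a description. The 15 windows at unadjusted p under 0.05 (16.3% of the locus, 13.5% of all windows) became 37 with the replicate block (40.2% and 36.4%), 4 by library size only (4.35% and 5.23%), 25 in DESeq2 with a local trend (27.2% and 22.2%), 2 of 9 windows of 100 kb (22.2% and 13.6%), 1 without Tet2 CKO replicates 2 and 3 (1.09% and 3.41%), 2 without WT replicate 1 as well (2.20% and 4.59%), and between 1 and 28 with any 1 library left out. With 1 library left out the share ran from 1.12% to 30.8% of the locus and from 2.81% to 23.8% of all windows. The 6 windows described singly kept their direction in every alternative fit that tested them. They were picked by their p in the main fit, and the alternatives reuse the same libraries, so this is no independent support. The cause of the changes between alternatives was not tested. Window medians of 22 to 63 reads per library limit what single windows can show.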
